A study of Mus musculus with 6 samples.

Results

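The 44 mouse genes whose symbol is Col, a number, a and a number encode chains of the collagens and were found among the 37991 genes counted in tumours with and without Kindlin-1. They were chosen by symbol alone. By class they held 11 fibrillar chains, 9 network chains, 9 FACIT chains (fibril-associated collagens with interrupted helices), the single anchoring chain Col7a1, 6 type VI chains, 4 transmembrane chains, 2 multiplexins and 2 chains outside these classes. Of the 44, 42 had at least 1 read and 25 passed the expression filter and were tested.

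RNA sequencing was performed on mouse tumours labelled as cutaneous squamous cell carcinoma, a cancer of skin keratinocytes. The genotype was Kindlin-1 WT in 3 libraries and Kindlin-1 Null in 3. Kindlin-1 is the product of Fermt1 and helps to switch on integrins, the receptors that attach cells to their matrix. The cell line label gives the kind of carcinoma but no name or clone of a line, and the sources used here give neither strain nor age of the mice. The RNA came from tumour tissue, which can hold cells of the host, and fewer cells of a type cannot be told apart from less RNA per cell. The titles give WT libraries 1 and 2 the mouse number 238 and Null libraries 2 and 3 the number 242, although the name of its deposited data gives Null library 3 another number. Should a number in the titles stand for a mouse, each group came from 2 mice, and n = 3 is a number of libraries. Should the other number of Null library 3 hold instead, only the WT group has libraries that share a mouse. Where 3 values are listed, they belong to libraries 1 to 3 of the group in that order. The p-values thus measure the spread between libraries, which may in part be technical. Between libraries that share a number in their titles, limma estimated a correlation of 0.597, from few libraries. The edgeR test took all libraries as independent, so its p-values do not allow for this correlation.

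Collagen chains carry a repeated glycine motif that lets them wind around one another into a rope-like helix. Fibrillar collagens such as types I and III form the tensile fibres of the dermis, and FACIT collagens decorate the surface of those fibres. Network collagens, above all type IV, form the sheet of the basement membrane, type VI forms beaded filaments around cells, and type VII anchors the epidermal basement membrane to the dermis. In skin and in tumour stroma the fibrillar chains are made mainly by fibroblasts, while keratinocytes also make types VII and XVII.

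Depth and tissue composition bear on what these libraries can show. The 6 libraries held between 161711 (WT library 2) and 31487255 reads in genes (Null library 2), of which 3399 and 648831 fell in collagen chains. Fermt1 reads, the check of the genotype, numbered 16, 2 and 1040 in WT tumours against 0, 2 and 2 in Null tumours, so the check was weak in WT library 2. The level of 3 reads stood at 18.4 CPM (reads per 1000000 reads of the TMM-scaled library) in WT library 2 and at 0.0951 to 2.76 CPM in the other libraries. Keratinocyte markers were low and uneven. Krt5, the basal keratin, did not exceed 3.9 CPM in any library, and Epcam did not exceed 3.74 CPM. Krt14, the partner of Krt5, stood at 45.3, 36.9 and 26.3 CPM in WT and at 10.1, 10.6 and 5.12 CPM in Null tumours. Perp stood at 140, 141 and 83.9 CPM against 33.2, 26.9 and 35.2 CPM, while Trp63, a regulator of basal cells, ranged from 4.68 to 27.6 CPM and Krt8 from 0.0317 to 36.8 CPM over the 6 libraries. The 10 keratinocyte markers together summed to 151.3 to 264.2 CPM in WT and 73.63 to 126.2 CPM in Null tumours. Perp was the largest part of each WT sum. In edgeR 2 of 6 tested fell, Krt14 and Perp, while limma-voom called Perp alone. The others were not called, with log2 fold changes (Null minus WT) of 0.53 for Trp63, 0.40 for Krt8, 0.76 for Cdh1 and -1.01 for Krt18.

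The fibrillar chain Col3a1 and the type VI chains Col6a1 and Col6a2 had the highest mean levels. Levels of different chains were compared per kilobase (kb) of the longest coding transcript. Over all 6 libraries Col3a1 averaged 1196 CPM per kb, followed by Col6a1 (684), Col6a2 (371), Col1a1 (223), Col1a2 (191), Col6a3 (179) and Col18a1 (134). The lowest library of Col3a1, WT library 3 at 546 CPM per kb, lay within the range of Col6a1 over all libraries (356 to 866 CPM per kb), although Col3a1 was above Col6a1 within each of the 6 libraries. Fibrillar chains took 53 ± 1.27% of collagen reads in WT and 54.4 ± 3.64% in Null tumours (SD, n = 3), and type VI chains took 33.5 ± 1.8% and 34.8 ± 3.06%. Network chains took 5.37%, 5.27% and 4.7% in WT and 4.54%, 4.03% and 4.63% in Null tumours. All 3 Null shares of the network chains were lower than the WT shares, by less than 1 percentage point on average. All chains together took 1.86 ± 0.466% of the reads in genes in WT and 1.82 ± 0.218% in Null tumours, and the groups overlapped.

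**Figure D1:**
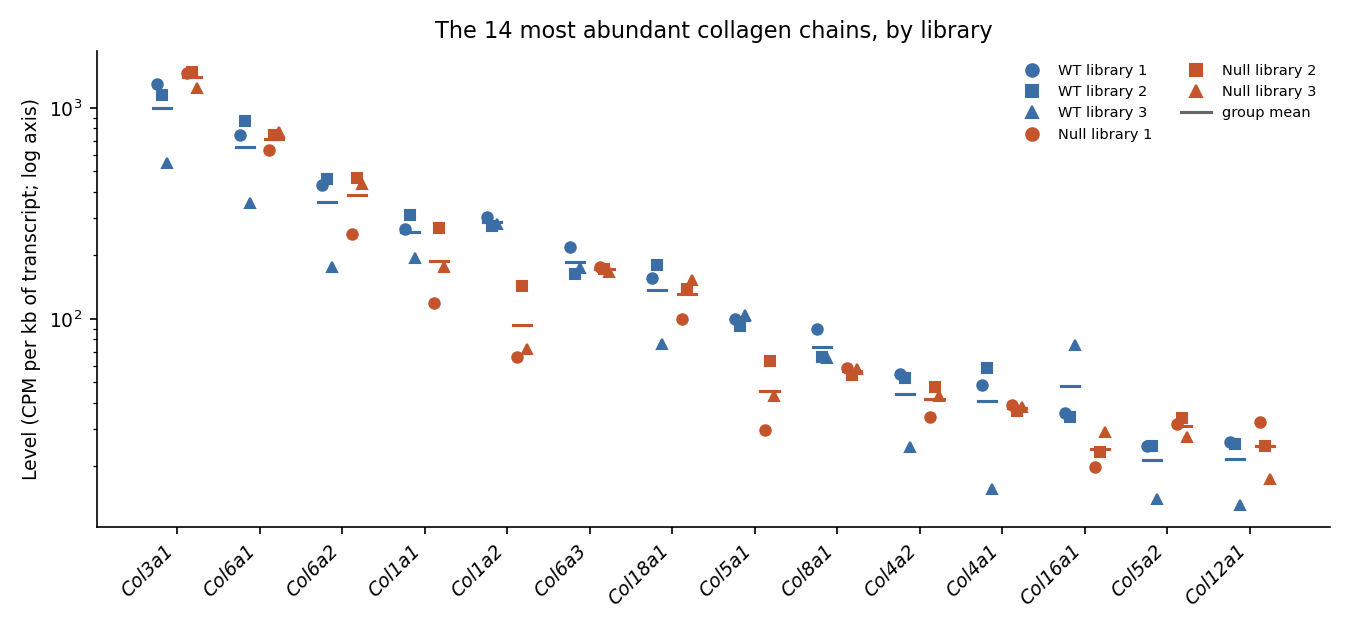
Level of the 14 collagen chains with the highest mean over all libraries, in CPM per kb of transcript on a log axis. Points are single libraries (blue WT, orange Null), and lines are group means. Col3a1 leads at a mean of 1196, and the 3 Null points lie under all WT points for Col1a2, Col5a1, Col8a1 and Col16a1. WT library 3 is the lowest WT point for Col3a1, Col6a1, Col6a2, Col1a1, Col18a1, Col8a1, Col4a2, Col4a1, Col5a2 and Col12a1.

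Collagen chains that changed were all lower in the Null tumours. Of 25 tested chains 6 fell (24%), where 3.52% of all 11887 tested genes fell, and 0 rose, where 2.26% of all tested genes rose (edgeR's quasi-likelihood test, Benjamini-Hochberg adjusted p under 0.05 over all genes). The 6 were the fibrillar chains Col1a2 and Col5a1, the FACIT chains Col14a1 and Col20a1, the anchoring chain Col7a1 and the multiplexin Col15a1. At an unadjusted p under 0.05, 12 chains were lower and 0 higher in edgeR, where 13% of all tested genes were lower and 12.1% higher. DESeq2 called 7 lower and 0 higher, and limma-voom with mouse number as a random effect called 7 lower and 0 higher. The median log2 fold change (Null minus WT) was -0.44 over the 25 chains and 0.01 over all tested genes, and 20 of 25 chains were below 0. The 3 Null values lay below all WT values in 10 of 25 chains (40%), against 14.3% of all tested genes, and above them in 1 chain, Col5a2, against 16.2%.

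The filter admitted 4 chains (Col14a1, Col20a1, Col8a2 and Col6a4) through the WT libraries, since they passed 3.07 CPM in all 3 of these but not in all Null libraries. Of the 20 chains above that level in all 6 libraries, 4 fell and 0 rose, with a median log2 fold change of -0.22, and in 6 (30%) all Null values lay below all WT values. Of the 10087 tested genes above that level in all 6 libraries, 2.93% fell, and in 14.2% all Null values lay below all WT values. The 6 falls did not rest equally on all libraries. The count of chains that fell was 2 without Null library 1 (Col14a1 and Col15a1) and 1 without Null library 3 (Col14a1). It was 4 without WT library 3, of which 3 were among the 6. Without WT library 1 or 2 it was 6, of which 5 were among the 6, with Col5a1 lost and Col11a2 added. Without Null library 2 it was 7, and all 6 were kept. The count of all called genes was 688 (5.79%) with all 6 libraries. It was 179 (1.38%) without Null library 1, 225 (2.09%) without Null library 3 and 281 (2.64%) without WT library 3.

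**Figure D2:**
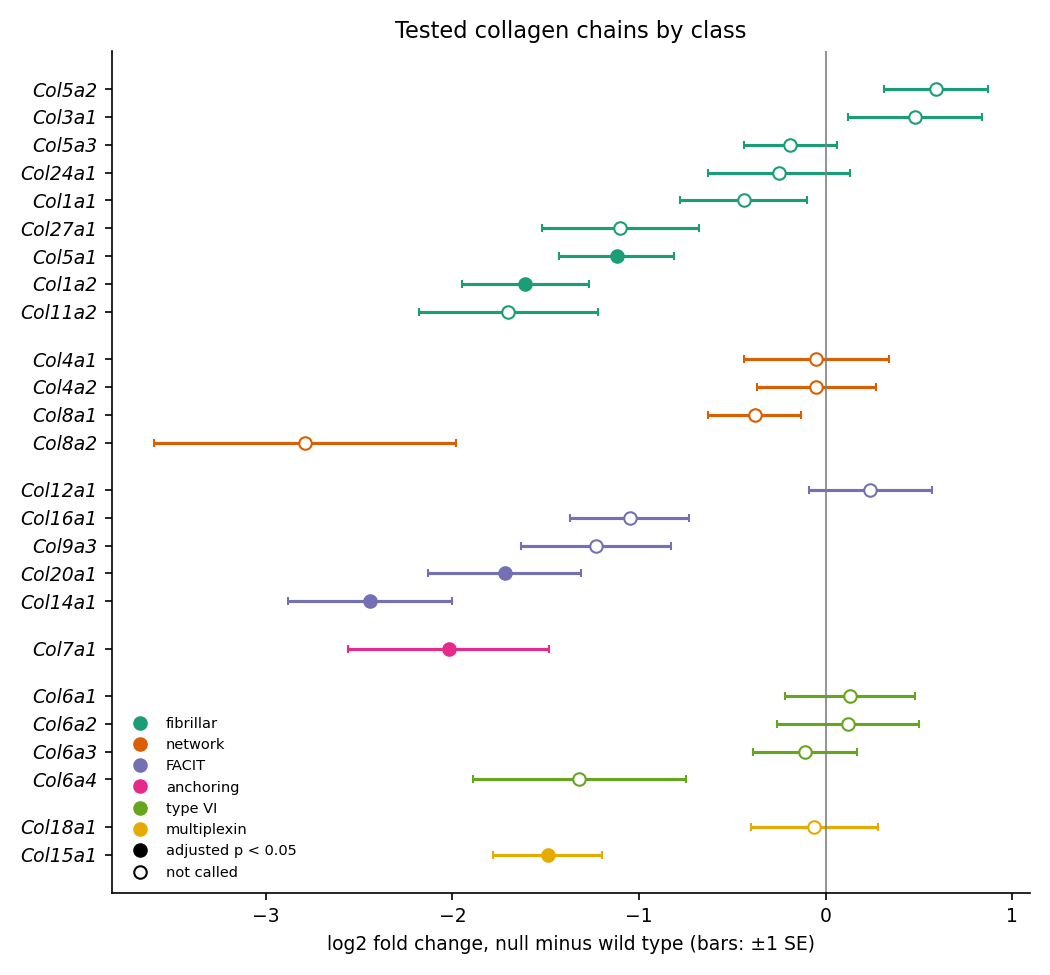
Log2 fold change (Null minus WT) of the 25 tested chains, grouped by class, with bars of 1 SE. Filled points passed an adjusted p under 0.05 in edgeR. All 6 filled points lie below 0, and Col5a2, Col3a1, Col12a1, Col6a1 and Col6a2 are the 5 chains above 0.

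Markers of stromal and other cells moved in the same libraries, and their part in the collagen differences was not tested. Of 10 fibroblast markers, all tested, 2 rose and 2 fell (median log2 fold change 0.02). Lum and Dcn, proteoglycans that bind collagen fibres, rose by 2.92 and 1.44 on the log2 scale, and Thy1 and Mfap5 stood at -1.62 and -1.77 (edgeR adjusted p = 0.000384, 0.0255, 0.00501 and 0.0394). Lum and Thy1 kept their calls without any 1 library, while Dcn lost its call without 3 libraries and Mfap5 without 4. The summed fibroblast markers ran from 1493 to 2866 CPM in WT and from 4680 to 5420 CPM in Null tumours. Dcn was the largest part of this sum in every library, at 1561, 1253 and 787 CPM in WT and 3619, 3204 and 2905 CPM in Null tumours. The sum therefore mostly follows 1 gene and is no measure of fibroblast content. Of 12 skeletal muscle markers 11 fell (median -3.61), and their sum ran from 608.8 to 1560 CPM in WT and from 49.78 to 128.4 CPM in Null tumours. Of 5 tested pericyte and smooth muscle markers 2 fell, Cspg4 and Notch3 (sum 296.4 to 608.3 CPM in WT, 362 to 455.7 CPM in Null tumours). None of 7 endothelial and none of 5 macrophage markers was called by edgeR, DESeq2 or limma-voom, with 0 at an unadjusted p under 0.05 in edgeR. Of the 2 tested markers each for adipocytes and for cartilage and bone 1 fell, Cfd and Sox9, while Acan and Ibsp, which define cartilage and bone, were at or near 0 reads.

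Upstream sequence is shown for 4 of the chains that fell and for Col3a1, the most abundant chain, which did not. The RefSeq table of gene starts (GRCm38.p6) held 35 of the 44 genes, with 38 windows, and did not hold Col1a1, Col2a1, Col4a3, Col5a2, Col9a3, Col12a1, Col14a1, Col22a1 and Col26a1. Col20a1, which also fell, is not shown because too few bases of its window lay outside annotated exons. The stretches are the 250 bases before the start on the plus strand, except for Col1a2, cut to the 123 bases outside annotated exons, whose end lies 125 bases before the RefSeq start. They lie at chr6:4505370-4505492 (Col1a2), chr2:27886175-27886424 (Col5a1), chr9:108953336-108953585 (Col7a1), chr4:47207762-47208011 (Col15a1) and chr1:45311288-45311537 (Col3a1). Capitals mark the letters GGGCGG (GC box), CCAAT and TATAAA on either strand.
Col1a2: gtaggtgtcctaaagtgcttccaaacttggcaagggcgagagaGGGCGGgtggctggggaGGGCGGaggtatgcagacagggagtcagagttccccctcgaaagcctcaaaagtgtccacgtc
Col5a1: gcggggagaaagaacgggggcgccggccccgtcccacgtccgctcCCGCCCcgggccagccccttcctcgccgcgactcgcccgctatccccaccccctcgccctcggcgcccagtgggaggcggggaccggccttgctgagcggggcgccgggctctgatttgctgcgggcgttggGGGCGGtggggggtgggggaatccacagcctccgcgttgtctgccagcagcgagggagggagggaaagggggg
Col7a1: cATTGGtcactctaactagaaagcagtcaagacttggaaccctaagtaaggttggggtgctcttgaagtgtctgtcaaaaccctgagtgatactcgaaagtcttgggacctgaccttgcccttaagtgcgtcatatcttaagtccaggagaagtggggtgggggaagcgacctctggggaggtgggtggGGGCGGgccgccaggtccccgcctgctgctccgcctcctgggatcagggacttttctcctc
Col15a1: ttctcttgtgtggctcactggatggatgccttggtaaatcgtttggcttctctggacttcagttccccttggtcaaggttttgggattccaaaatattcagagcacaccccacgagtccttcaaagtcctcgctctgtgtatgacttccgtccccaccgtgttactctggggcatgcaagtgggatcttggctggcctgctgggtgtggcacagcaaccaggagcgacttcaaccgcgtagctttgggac
Col3a1: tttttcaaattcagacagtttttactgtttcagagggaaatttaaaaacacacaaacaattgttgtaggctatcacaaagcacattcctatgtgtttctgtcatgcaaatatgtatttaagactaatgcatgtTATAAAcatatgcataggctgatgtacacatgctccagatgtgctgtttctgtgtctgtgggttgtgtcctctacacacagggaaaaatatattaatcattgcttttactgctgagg
The Col1a2 and Col5a1 stretches held 2 GC boxes each and the Col7a1 stretch 1, with a CCAAT on its far end. The Col15a1 stretch held none of these letters, and that of Col3a1 held 1 TATAAA and no GC box. None of the 3 motifs was found in all 4 stretches of chains that fell. GC content was 76.4% for Col5a1 and 35.2% for Col3a1. Over whole windows of 250 bases the GC box was found in 22 of 38 collagen windows (57.9%) and in 32.7% of all 32851 windows. CCAAT was found in 34.2% of collagen windows and 33.8% of all, and TATAAA in 13.2% and 12.4%. A match is a description of letters and not evidence of a bound factor.

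Of 9 tested fibrillar chains (median log2 fold change -0.44) 2 fell. Type I collagen, the main fibre of the dermis, is built from the chains of Col1a1 and Col1a2, and Col1a2 fell while Col1a1 did not pass the test. Col1a2 (ENSMUSG00000029661) stood at 1624, 1474 and 1516 CPM in WT and at 354, 766 and 385 CPM in Null tumours. The WT values lay within a narrow band and all Null values lay below it, with Null library 2 the highest of them. The fall was 3.06-fold (log2 fold change -1.61, SE 0.34, edgeR adjusted p = 0.0174). It was lost without Null library 1 (edgeR adjusted p = 0.093) or Null library 3 (0.0817) and with shared mouse numbers summed in both groups (0.0735). The call was kept with the WT pair alone summed (edgeR adjusted p = 0.0421). Col1a1 (ENSMUSG00000001506) stood at 1578, 1837 and 1152 CPM in WT and at 705, 1608 and 1042 CPM in Null tumours. Its groups overlapped, with Null library 2 inside the WT range (log2 fold change -0.44, SE 0.34, edgeR adjusted p = 0.441).

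The ratio of the type I chains within each library was set apart between the groups. It does not depend on how libraries are scaled, and it was looked at after the values of both chains had been seen. Reads of Col1a1 per read of Col1a2 came to 0.972, 1.25 and 0.76 in WT and to 1.99, 2.1 and 2.71 in Null tumours. The groups did not overlap, and the 95% exact binomial intervals of the nearest libraries, WT library 2 (1.05 to 1.48) and Null library 1 (1.76 to 2.26), were also apart. Per kb of transcript the ratio was 0.685 to 1.12 in WT and 1.8 to 2.44 in Null tumours. The geometric mean was 0.973 in WT and 2.24 in Null tumours, a ratio of 2.31 (log2 SD 0.36 and 0.24, n = 3; exact two-sided permutation p = 0.1, the smallest that 3 against 3 libraries allow, 0.2 adjusted over 6 pairs). With 1 library left out the log2 difference stayed between 1.03 and 1.39.

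Type V collagen, which is built into type I fibres and limits their width, had a chain that fell and a partner that did not. Col5a1 (ENSMUSG00000026837) stood at 843, 774 and 872 CPM in WT and at 250, 528 and 364 CPM in Null tumours. Every Null value was below every WT value (log2 fold change -1.12, SE 0.31, edgeR adjusted p = 0.049). This call stood just inside the threshold and was lost without any library other than Null library 2 (edgeR adjusted p 0.0519 to 0.165), and with shared mouse numbers summed. Col5a2, its partner chain, did not pass the test and stood at 166, 166 and 92.7 CPM in WT and 209, 226 and 183 CPM in Null tumours (log2 fold change 0.59, SE 0.28, edgeR adjusted p = 0.214). Reads of Col5a1 per read of Col5a2 were 5.07, 4.67 and 9.4 in WT and 1.19, 2.34 and 1.99 in Null tumours. The ratio was 3.42-fold higher in WT by geometric means (6.06 against 1.77; log2 SD 0.55 and 0.51, n = 3; exact permutation p = 0.1, 0.2 adjusted over 6 pairs). Col5a3, the third type V chain, stood at 123 ± 13.4 and 110 ± 21.8 CPM (SD, n = 3; edgeR adjusted p = 0.669).

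**Figure D3:**
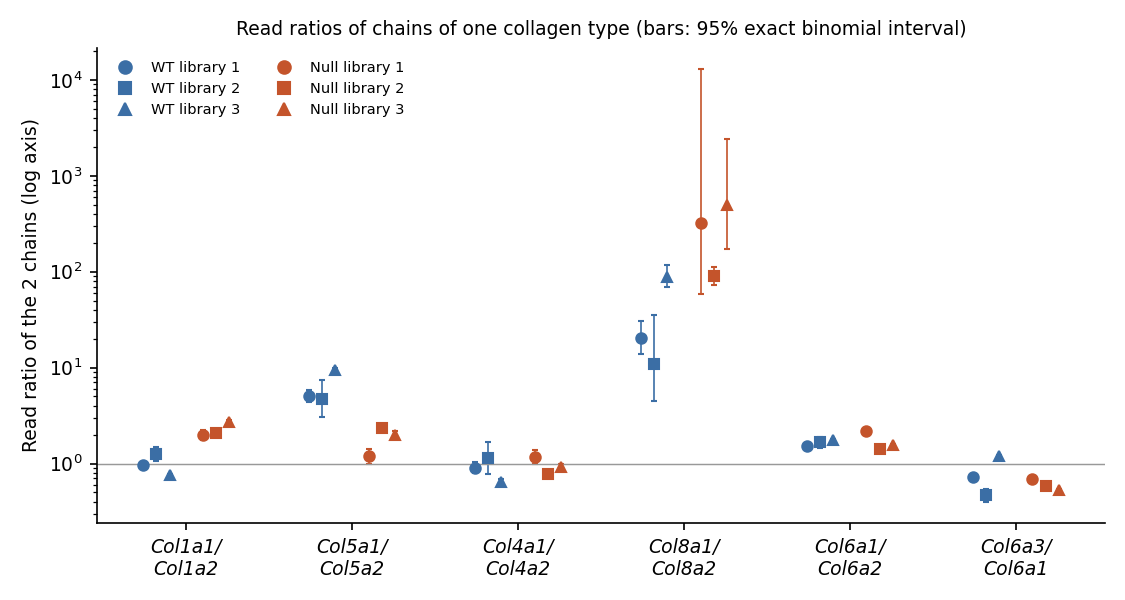
Reads of one chain per read of its partner in the same collagen type, on a log axis, for 6 pairs. Points are single libraries (blue WT, orange Null) and bars are 95% exact binomial intervals, which cover counting error only. The groups are apart for Col1a1 to Col1a2, Col5a1 to Col5a2 and, with few Col8a2 reads, Col8a1 to Col8a2, and overlap for the type IV and type VI pairs.

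Col3a1, the type III chain of young and healing dermis, was the fibrillar chain with the most reads and did not pass the test. It stood at 7231, 6383 and 3036 CPM in WT and at 8145, 8193 and 6930 CPM in Null tumours (log2 fold change 0.48, SE 0.36, edgeR adjusted p = 0.415). WT library 3 was less than 50% of the other WT libraries, and Null library 3 lay inside the WT range. As a share of collagen reads Col3a1 was 33.5%, 30.6% and 23.7% in WT and 47.4%, 39.8% and 38.5% in Null tumours, without overlap. Col1a2 took 7.51%, 7.06% and 11.8% in WT against 2.06%, 3.73% and 2.14%. Shares within one total move against each other, so the higher share of one chain and the lower share of another are not separate results.

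The remaining fibrillar chains were scarce. Col11a2, a chain of the cartilage-type fibre, stood at 10.9, 0 and 23.5 CPM in WT and at 3.68, 5.32 and 5.31 CPM in Null tumours (log2 fold change -1.70, SE 0.48, edgeR adjusted p = 0.0558). The value of 0 belonged to WT library 2, where 3 reads equal 18.4 CPM. Col27a1 stood at 28.5 ± 20.6 and 15.4 ± 7.79 CPM and Col24a1 at 14.3 ± 4.14 and 10.6 ± 3.44 CPM (SD, n = 3), and neither passed (edgeR adjusted p = 0.128 and 0.819). Col2a1, the main chain of cartilage fibres, had 13 reads in all, and Col11a1 had 113, too few to be tested.

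Of 5 tested FACIT chains (median log2 fold change -1.23) 2 fell, Col14a1 and Col20a1. Both passed the expression filter through the WT libraries, and none of the 3 FACIT chains above 3.07 CPM in all 6 libraries was called in edgeR. Col14a1 (ENSMUSG00000022371), which encodes a chain that binds the surface of type I fibres, stood at 46.1, 49.1 and 25.2 CPM in WT and at 2.76, 9.86 and 4.72 CPM in Null tumours. It fell 5.41-fold, with no overlap of the groups (log2 fold change -2.44, SE 0.44, edgeR adjusted p = 0.00778), and it alone of the 6 chains kept its call in all 14 alternative fits. Its log2 fold change was -3.18 without Null library 2 and -1.67 in limma-voom, where it stood just inside the threshold (limma-voom adjusted p = 0.048). Col14a1 had 8 reads in WT library 2 and 3 reads in Null library 1. Col20a1 (ENSMUSG00000016356), a related FACIT chain, stood at 16.4, 12.3 and 19.3 CPM in WT and at 1.84, 6.69 and 5.12 CPM in Null tumours (log2 fold change -1.72, SE 0.41, edgeR adjusted p = 0.0303). These values rest on 2 reads each in WT library 2 and Null library 1, and the call was lost without WT library 3 (edgeR adjusted p = 0.167), Null library 1 (0.0854) or Null library 3 (0.112).

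Among the other FACIT chains the groups did not overlap for Col16a1 and Col9a3, which did not pass. Col16a1 stood at 186, 178 and 391 CPM in WT and at 103, 122 and 151 CPM in Null tumours (log2 fold change -1.05, SE 0.32, edgeR adjusted p = 0.0706). Col9a3, a type IX chain, stood at 11.2 ± 0.939 CPM in WT and 4.65 ± 0.451 CPM in Null tumours (SD, n = 3; edgeR adjusted p = 0.0838). Col12a1, which binds dense fibres under tension, stood at 300, 295 and 151 CPM in WT and at 371, 288 and 201 CPM in Null tumours and overlapped (log2 fold change 0.24, or -0.08 without WT library 3; edgeR adjusted p = 0.685). Over all libraries Col12a1 and its close relative Col14a1 stood at 23.3 and 3.55 CPM per kb.

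Col7a1 (ENSMUSG00000025650) encodes type VII collagen, the anchoring fibril of the skin and a product of keratinocytes and fibroblasts. It stood at 71.8, 43 and 202 CPM in WT and at 12, 51.2 and 17.9 CPM in Null tumours. Null library 2 exceeded WT library 2, so the groups overlapped, and WT library 3 stood far above the rest. It fell 4.06-fold and stood just inside the threshold (log2 fold change -2.02, SE 0.54, edgeR adjusted p = 0.0494). Without WT library 3 the log2 fold change was -1.10 (edgeR adjusted p = 0.3), and without Null library 2 it was -2.94. The call was also lost without Null library 1 or 3 and in DESeq2 and limma-voom. It was lost too without an expression filter (edgeR adjusted p = 0.268) and with shared mouse numbers summed in both groups (0.103) or in WT alone (0.0595).

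**Figure D4:**
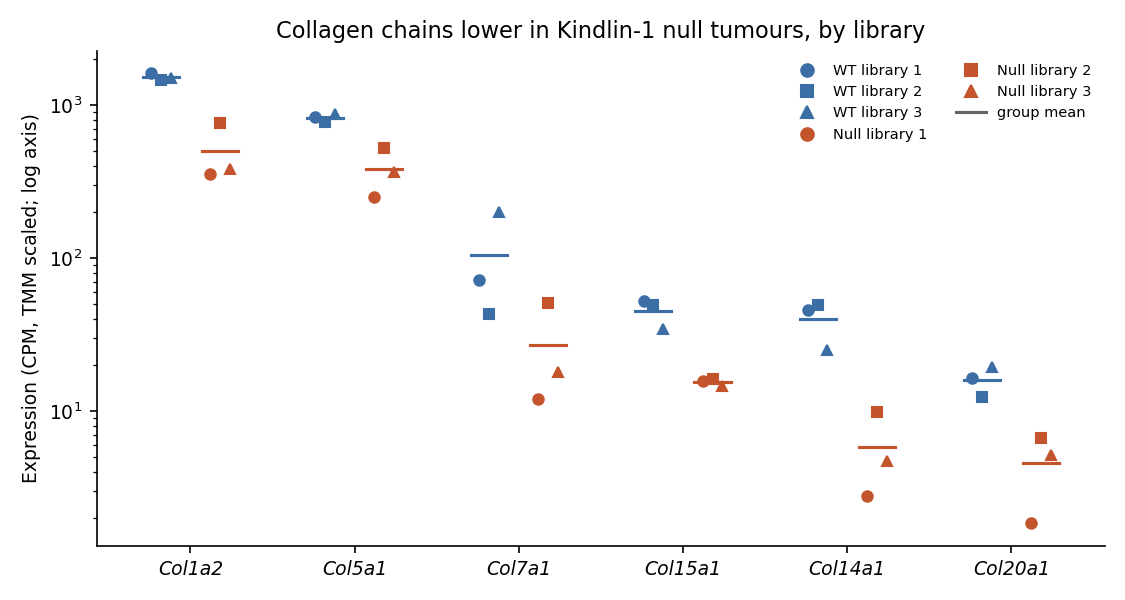
CPM of the 6 chains that fell, on a log axis, with 1 point per library (blue WT, orange Null) and a line for each group mean. The groups are apart for all but Col7a1, where Null library 2 (51.2) exceeds WT library 2 (43), and Null library 2 is the highest Null point in each of the 6 chains.

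Of 4 tested network chains (median log2 fold change -0.22) none was called in edgeR or limma-voom, and DESeq2 called 1, Col8a2, which was also the 1 lower at an unadjusted p under 0.05 in edgeR. Col4a1 and Col4a2 encode the common type IV chains of basement membranes and lie head to head in the genome. Col4a1 stood at 321, 387 and 104 CPM in WT and at 257, 241 and 252 CPM in Null tumours. Col4a2 stood at 354, 338 and 160 CPM in WT and at 220, 308 and 276 CPM in Null tumours. Both had a log2 fold change of -0.05 (SE 0.39 and 0.32, edgeR adjusted p = 0.952 and 0.941), with a sign that turned in 5 and 6 of 14 alternative fits. Their read ratio averaged 0.877 in WT and 0.941 in Null tumours (geometric means; exact permutation p = 0.7, 0.84 adjusted over 6 pairs). The rarer type IV chains Col4a3 to Col4a6 were not tested, with 12 to 45 reads each over all libraries.

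Type VIII collagen, a short-chain network of vessels and other tissues, is built from Col8a1 and Col8a2, at 65.3 and 2.37 CPM per kb over all libraries. Col8a1 stood at 460, 338 and 333 CPM in WT and at 300, 276 and 295 CPM in Null tumours, without overlap (log2 fold change -0.38, SE 0.25, edgeR adjusted p = 0.358). Col8a2 stood at 22.6, 30.7 and 3.74 CPM in WT and at 0.921, 3.07 and 0.59 CPM in Null tumours (log2 fold change -2.79, SE 0.81, edgeR adjusted p = 0.0602). Null libraries 1 and 3 had 1 and 3 reads of it, and with 1 library left out the log2 fold change ran from -2.04 (without WT library 1) to -4.36 (without Null library 2). DESeq2 called it (log2 fold change -3.22, DESeq2 adjusted p = 0.00353), while limma-voom gave -0.75 (adjusted p = 0.562). Col10a1, the short chain of growth cartilage, had 20 reads in all.

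Of 4 tested type VI chains (median log2 fold change 0.00) none was called in edgeR, DESeq2 or limma-voom. At an unadjusted p under 0.05 the scarce Col6a4 was the only one of 4 lower in edgeR. Col6a1 stood at 3045, 3551 and 1461 CPM in WT and at 2582, 3039 and 3151 CPM in Null tumours (log2 fold change 0.13, SE 0.35, edgeR adjusted p = 0.851). Col6a2 stood at 2007, 2144 and 825 CPM in WT and at 1175, 2174 and 2023 CPM in Null tumours (log2 fold change 0.12, SE 0.38, edgeR adjusted p = 0.877). Col6a3 stood at 2199, 1653 and 1765 CPM in WT and at 1782, 1751 and 1679 CPM in Null tumours (log2 fold change -0.11, SE 0.28, edgeR adjusted p = 0.835). In all 3 chains the groups overlapped. Without WT library 3, the lowest WT library of Col6a1 and Col6a2, these chains stood at -0.20 and -0.24. Col6a1 gave 1.64 reads per read of Col6a2 in WT and 1.68 in Null tumours (exact permutation p = 0.9, also 0.9 adjusted over 6 pairs). With 3 libraries per group this permutation test cannot fall below 0.1, so it separates no pair at the usual threshold.

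Of the multiplexins, basement membrane collagens that carry endostatin-like ends, 1 of 2 fell. Col15a1 (ENSMUSG00000028339) stood at 52.3, 49.1 and 34.6 CPM in WT and at 15.7, 16.2 and 14.6 CPM in Null tumours. The Null libraries lay close together and all below the WT libraries (2.81-fold lower, log2 fold change -1.49, SE 0.29, edgeR adjusted p = 0.0128), and the call was lost without Null library 3 (0.0614). Col18a1 stood at 873, 1008 and 427 CPM in WT and at 558, 775 and 856 CPM in Null tumours (log2 fold change -0.06, SE 0.34, edgeR adjusted p = 0.933), with a sign that turned in 6 of 14 alternative fits.

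The transmembrane chains did not pass the expression filter and were not tested in the edgeR fit that used it. Col17a1, the hemidesmosomal collagen of basal keratinocytes, had 1, 0 and 6 reads in WT and 1, 21 and 0 reads in Null tumours. It stayed under 1 CPM in every library, and Krt5 did not exceed 3.9 CPM. Col23a1, Col13a1 and Col25a1 had 87, 76 and 3 reads in all. Of the 19 untested chains 15 had at most 50 reads over the 6 libraries, so differences in them could have been missed. Among these 15 were Col19a1 and Col9a2, which had no read. The fit without an expression filter took in the 42 chains with a read and called none of the 19.

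**Figure D5:**
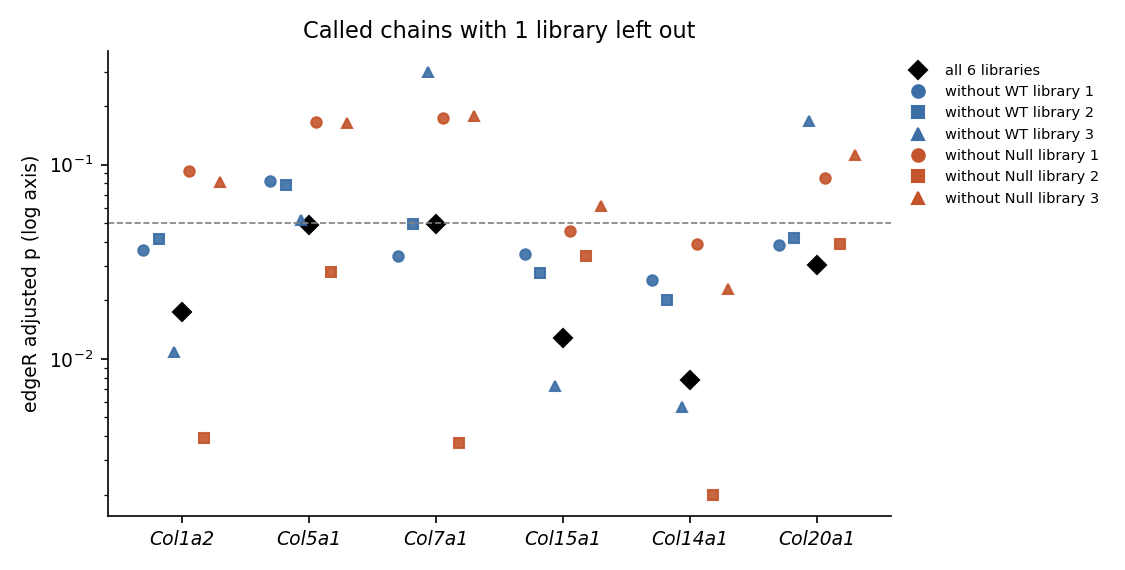
Adjusted p (edgeR, log axis) of the 6 chains that fell, with all 6 libraries (black) and with each library left out in turn. The dashed line is 0.05. Col14a1 stays under the line in every fit, Col15a1 in all but the fit without Null library 3, and Col5a1 passes with all 6 libraries and, of the fits with 1 left out, without Null library 2 alone.

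Genes that fold, process, crosslink, bind and degrade collagen were set beside the chains. Of 41 tested genes on these 5 lists 1 rose and 2 fell in edgeR, where 2.26% of all tested genes rose and 3.52% fell. The counts for the 41 genes are near those shares. None of 18 tested genes for folding and modification of procollagen was called in edgeR (4 higher and 2 lower at an unadjusted p under 0.05, where 12.1% and 13% of all tested genes were higher and lower). DESeq2 and limma-voom each called 1, P4hb, the protein disulfide isomerase subunit of prolyl hydroxylase (log2 fold change 1.04 and edgeR adjusted p = 0.0742). Serpinh1, the collagen chaperone of the endoplasmic reticulum, stood at 267 ± 94.9 CPM in WT and 324 ± 28.5 CPM in Null tumours (SD, n = 3; edgeR adjusted p = 0.541). The 6 processing genes and 4 crosslinking genes tested had no call in edgeR. At an unadjusted p under 0.05, 1 and 2 of them were lower, where 13% of all tested genes were lower. DESeq2 called 1 of each lower (Adamts14 and Lox), and limma-voom called Adamts14. The median log2 fold changes of the folding, processing and crosslinking lists were 0.20, -0.27 and -0.52.

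Mrc2, the endocytic receptor that takes up collagen fragments, was the 1 of 8 tested collagen receptors that fell in edgeR (median of the list -0.46), and limma-voom called Itga11 in its place. It stood at 43.7, 86 and 51 CPM in WT and at 15.7, 21.6 and 9.44 CPM in Null tumours (log2 fold change -1.76, SE 0.36, edgeR adjusted p = 0.0159), and lost its call without Null library 1 or 3 (highest 0.0776). Of 5 degradation genes tested (median 0.08), the collagenase Mmp13 rose and the collagen-cleaving cathepsin Ctsk fell. Mmp13 stood at 1.56, 12.3 and 7.68 CPM in WT and at 353, 68.7 and 108 CPM in Null tumours (log2 fold change 4.76, SE 0.71, edgeR adjusted p = 0.00374), a call lost without WT library 3 (0.178), with log2 fold changes of 3.76 to 5.86 when 1 library was left out. Ctsk stood at 46.8, 36.9 and 22.5 CPM in WT and at 17.5, 8.49 and 7.48 CPM in Null tumours (log2 fold change -1.76, SE 0.42, edgeR adjusted p = 0.0295), a call lost when WT library 1 or Null library 2 or 3 was left out (highest 0.118).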

How the data were processed

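RNA was measured by sequencing in 3 Kindlin-1 WT and 3 Kindlin-1 Null tumour libraries. The authors deposited raw counts of reads for each Ensembl gene and library as whole numbers, with 5 closing lines that name no gene and stayed out of all totals. Per the submitters' processing notes TopHat2, Cuffdiff, DESeq2 and the build mm9 were used, with no version or role. How reads were assigned to genes, with which annotation and strand setting, is not given in the sources used here, so reads of overlapping antisense genes cannot be told apart. Reads with several alignments made up 32.9% to 40% of listed reads, and reads in no gene 7.15% to 12% in WT and 4.63% to 5.84% in Null libraries.

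Symbols came from GENCODE M21 (GRCm38) by identifier, and 86.6% of 37991 identifiers matched. That build is not mm9, so gene coordinates are not given, and transcript lengths are those of its longest coding transcript. Counts were tested in R 4.3.3 with edgeR 4.0.16 (TMM scaling, default filter, robust quasi-likelihood fit, group only) and Benjamini-Hochberg adjustment over 11887 genes at 0.05. Each SE was taken as the log2 fold change divided by the square root of F, and CPM values are TMM scaled. Alternatives used DESeq2 1.42.0, limma 3.58.1, other filters and scaling, summed shared mouse numbers and each library left out. Simulated data were used to try the edgeR, DESeq2 and limma-voom fits alone, and the outcome is not reported here. The other filters and scaling, the summed mouse numbers and the left-out libraries were not simulated. Intervals and the floor of 3 reads reflect counting error alone, because PCR copies could not be recognised.

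Chains were named by symbol. Values per library are given for called chains and for the 2 highest of each class with a tested chain. Of the other 2 classes, transmembrane chains are given by reads and the chains outside the classes by number alone. The lists of genes that act on collagen name their called genes and Serpinh1, while called skeletal muscle markers are given by count. Further chains given by library were chosen after their values were seen. The members, classes and lists were chosen with earlier results of these data known. The result of 1 marker list is not reported here.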

Additional observations from a re-analysis of the deposited data

How the results depend on the processing

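No collagen chain was called higher in any of the 14 alternative fits. With 1 library left out, called chains lower in Null tumours numbered 1 to 7 and all called genes 179 to 855. In the other 8 fits the chains numbered 4 to 7 and all genes 484 to 961. These counts include chains outside the 6 that fell with all libraries. Of those 6, 1 to 6 kept their calls with 1 library left out and 3 to 6 in the other 8 fits. The sign of 8 chains that were never called turned in at least 1 fit. With 1 library left out, log2 fold changes ran from -0.08 to 0.46 for Col12a1, -0.38 to 0.18 for Col18a1, -0.50 to 0.26 for Col4a1, -0.39 to 0.21 for Col4a2, -0.20 to 0.39 for Col6a1, -0.24 to 0.36 for Col6a2 and -0.18 to 0.04 for Col6a3. With shared mouse numbers summed in both groups Col18a1, Col4a1 and Col4a2 stood at 0.03, 0.22 and 0.04, and with the WT pair alone summed at 0.15, 0.22 and 0.07. In limma-voom with mouse number as a random effect they stood at 0.14, 0.52 and 0.15, and Col24a1 at 0.00. The cause was not tested. Col11a2 passed in 6 of 12 alternative fits in which it was tested and Col8a2 in 3 of 13. limma-voom called 533 genes higher and 428 lower, where edgeR called 269 and 419. Taken per kb, the network share was 4.95 ± 0.171% in WT and 4.08 ± 0.31% in Null tumours (SD, n = 3). Its difference ran from -0.919 to -0.53 percentage points with 1 library left out. FACIT shares overlapped in reads, but per kb all 3 Null shares were below the WT shares. The chain ratios with 1 library left out were added after seeing the data. No paired analysis was possible because library numbers follow accession order and the mouse numbers in the labels are not shared between the groups. In WT library 2, with 3399 collagen reads, 3 reads equal 18.4 CPM.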

Other observations

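Coding transcripts of the 25 tested chains were long and rich in G and C, with a median length of 6048 bases and a median GC content of 56.7%, against 3166 bases and 50.2% over 11424 tested genes with a coding transcript. Across these chains the log2 fold change had a Spearman correlation of -0.27 with GC content and 0.12 with log2 length, and across the 11424 genes of -0.23 and -0.27. These are descriptions across genes of the same 6 libraries, and genes are not independent replicates. GC content was 58.9% for Col1a1 and 55.7% for Col1a2, the partners of type I. It was 58% for Col5a1 and 49.6% for Col5a2, the partners of type V. Whether GC content bears on the chain ratios was not tested.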
